A study of Mus musculus with 4 samples.

Results

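At embryonic day 11.5 (E11.5) a small share of mouse hindlimb cells carried many transcripts of the simple epithelial keratins, and these cells are described here. A cell was taken as a simple keratin cell when its unique molecular identifiers (UMIs, each standing for 1 captured transcript) for Krt7, Krt8, Krt18 and Krt19 summed to at least 10 and it held no UMI of Fgf8 or Cdh5. After cells under 200 genes or over 10% mitochondrial UMIs were removed, 2640 E11.5 cells were left, of which 152 met this rule, or 5.76% (95% Clopper-Pearson interval 4.90 to 6.72%). Another 14 cells reached the keratin sum but were left out, 4 for an Fgf8 UMI and 10 for a Cdh5 UMI. All 4 libraries of the study together held 9958 such cells of 10272 barcodes. Each library is the pooled hindlimb cells of pups of a single C57BL/6 litter, collected at E11.5 or at one of the later stages E13.5, E15.5 and E18.5, then frozen, thawed, depleted of dead cells and captured on the 10x Chromium 3′ v2 platform. No group carried a mutation or a treatment. With 1 library per stage there is no biological replicate, so no test was made, and every interval below covers counting error only; intervals treat UMIs as independent, which makes them too narrow as statements about cells.

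The early limb bud is covered by ectoderm. Its deep layer expresses the transcription factor p63 (Trp63) with the keratins Krt5 and Krt14, and along the distal rim it thickens into the apical ectodermal ridge, which secretes Fgf8 and keeps the mesenchyme beneath it growing. Over the deep layer lies the periderm, a transient flat layer sealed by tight junctions and desmosomes that is known to express simple keratins and to be shed late in gestation, once the cornified epidermis has formed. Krt7 and Krt8 are type II keratins and Krt18 and Krt19 type I keratins, and a filament needs one of each type. Cldn3 is a tight junction claudin.

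The simple keratin cells were set against the low-keratin epithelium, which was every E11.5 cell with at least 1 UMI of the epithelial adhesion gene Epcam and a keratin sum under 10 (405 cells). That comparison group was mixed. A UMI of the limb mesenchyme gene Prrx1 was found in 7.89% of simple keratin cells and in 39.8% of low-keratin cells, and a single Epcam UMI was all that 44.9% of the low-keratin cells held. A UMI of the endothelial gene Cdh5 was present in 6.42% of them. Each comparison was therefore repeated against a strict low-keratin epithelium, chosen after the data were seen, of 149 cells with at least 3 Epcam UMIs, a keratin sum under 10 and no UMI of Prrx1, Pdgfra or Cdh5. Of these 149 cells 15 held Fgf8, as ridge cells do. Cells with Prrx1 but no Epcam (1240 mesenchyme cells) gave the background for shares of cells with a UMI. Median depth was 10122.5 UMIs in simple keratin cells, against 9401 in the low-keratin epithelium, 8451 in the strict group and 9077 in mesenchyme. The E11.5 library held 27149328 UMIs. No barcode of a simple keratin cell recurred in another library. A doublet caller marked 5 of the 152 cells, a larger share than over all 2640 kept E11.5 cells, where it marked 22 (0.833%).

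The promoter of Sfn is shown because Sfn, which encodes 14-3-3 sigma, was the gene whose level per cell most resembled the keratin sum, as described further on, and because it was the only one of 10 genes of the periderm list with a RefSeq promoter entry whose window held the letters searched for Grainyhead-like factors. The window runs from 250 bases before the start to 50 after it, at chr4:133602119-133602418 on the minus strand of GRCm38.p6, and is written 5′ to 3′ with the match to AACCNGTT (either strand) in capitals, 184 bases before the start.
Sfn promoter: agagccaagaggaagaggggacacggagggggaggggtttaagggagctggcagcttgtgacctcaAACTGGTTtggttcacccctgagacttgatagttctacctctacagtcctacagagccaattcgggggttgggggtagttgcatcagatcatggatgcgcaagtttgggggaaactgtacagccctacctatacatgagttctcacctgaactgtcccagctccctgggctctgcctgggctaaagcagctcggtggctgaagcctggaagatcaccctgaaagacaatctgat
The same letters were present in the promoters of 2.87% of the genes called higher in simple keratin cells, in 2.59% of those called lower, in 2.21% of all genes tested and in 2.24% of all genes with a promoter entry. For calls against the strict group the shares were 3.31% of the higher and 4.21% of the lower genes. Letters for TFAP2 factors (GCCNNNGGC) and for AP-1 (TGANTCA) were searched as well. The TFAP2 letters were in 31.4% of the higher, 34.3% of the lower and 30.3% of all tested genes. For the AP-1 letters these shares were 9.14%, 5.95% and 5.39%. All such matches are descriptions of the sequence and not evidence of binding.

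The keratin sum, which chose the cells, ran over a wide range among them. Its lowest, median and highest values were 10, 30 and 379 UMIs in the simple keratin cells, against 0, 1 and 9 UMIs in the low-keratin epithelium. A sum of 10 to 19 was found in 47 simple keratin cells, 20 to 39 in 46, 40 to 79 in 32 and 80 or more in 27. The cut at 10 therefore fell on a slope and not in a gap between separate populations. Just inside it, 27 cells had sums of 10 to 14, and Cldn3 was detected in 48.1% and the transcription factor Grhl3 in 33.3% of them. Just outside it, among 64 cells with sums of 5 to 9 and neither Fgf8 nor Cdh5, Cldn3 was detected in 26.6% and Grhl3 in 18.8%.

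**Figure D1:**
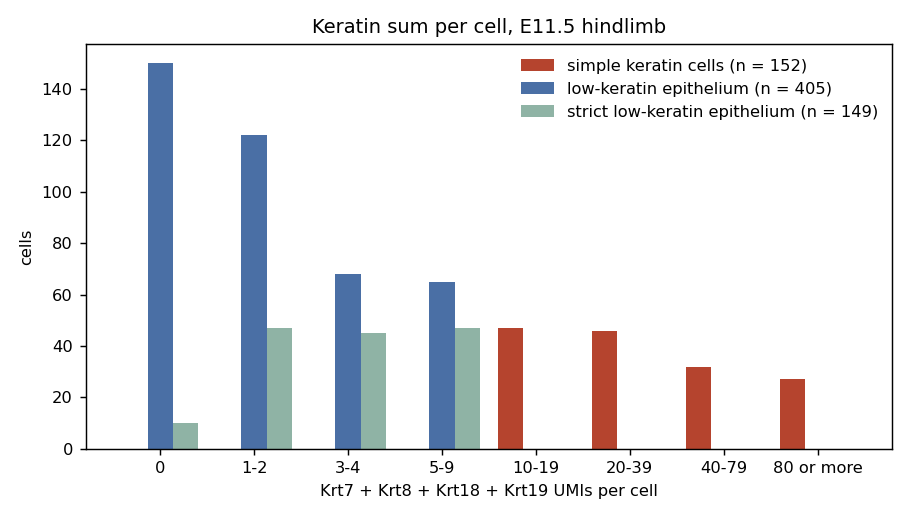
Number of E11.5 cells (vertical axis) in each class of the Krt7, Krt8, Krt18 and Krt19 sum (UMIs per cell, horizontal axis) in 152 simple keratin cells, 405 low-keratin cells and the 149 of these in the strict group. The groups meet at 10 UMIs by construction, and the simple keratin cells spread over classes of 47, 46, 32 and 27 cells.

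The 4 keratins were found together in most of these cells. All 4 were detected in 105 cells (69.1%), 3 in 40 and 2 in 7. Krt18 (chr15:102028180-102032027, plus strand) had a UMI in 151 of the 152 cells, Krt7 (chr15:101411043-101430313, plus strand) in 147, Krt8 (chr15:101996698-102004482, minus strand) in 143 and Krt19 (chr11:100140810-100148665, minus strand) in 113. Their per-cell medians were 11, 6, 10 and 2 UMIs in the simple keratin cells, and each was 0 in the low-keratin epithelium. The simple keratin cells held 6.55% of the UMIs of all kept E11.5 cells, but 85.8% of the Krt8 UMIs, 78.8% of Krt7, 75.8% of Krt19 and 73.1% of Krt18. These values restate the rule. Cldn3 (chr5:134986214-134987472, plus strand) was no part of it, and 84.0% of its UMIs lay in the same cells. It was detected in 86.2% of simple keratin cells, in 11.1% of the low-keratin epithelium, in 20.8% of the strict group and in 1.29% of mesenchyme cells. Of the markers of the label only Cldn3 lies outside the rule. The cells were chosen with earlier results of these data known, so Cldn3 is no independent support for the label. Keratins typical of stratified epithelium were high in the same cells, which are therefore not defined by simple keratins alone.

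Across genes, levels were compared as ratios of UMIs per 1000000 of each group's total (CPM), divided by the ratio of the median gene. A gene was called when this ratio was at least 2-fold, its whole 95% interval lay on one side of 1 and both groups together held at least 20 UMIs. Against the low-keratin epithelium 801 of 10963 genes tested were called higher (7.31%) and 941 lower (8.58%). Against the strict group 610 of 9381 were called higher (6.5%) and 377 lower (4.02%). Of the 801 higher genes 463 were also higher against the strict group, which is 57.8% of the first list and 75.9% of the second. Only 165 lower genes were shared, 17.5% of the first list and 43.8% of the second, so most lower calls against the low-keratin epithelium were not made against the strict group. All 20 genes with the largest higher ratios were higher in both comparisons, whereas of the 15 with the largest lower ratios 3 were.

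Genes of the periderm list were higher as a group. All 13 members with enough UMIs were called higher against the low-keratin epithelium and 12 of 13 against the strict group, with a median log2 ratio of 4.07 against the low-keratin epithelium and 2.83 against the strict group, where the median gene stood at 0.00 in both. Together the list made up 8625 CPM in simple keratin cells, 704 CPM in the low-keratin epithelium, 1706 CPM in the strict group and 22.6 CPM in mesenchyme. With every cell thinned to 3000 UMIs, the list summed to a median of 30 UMIs per simple keratin cell, against 1 per low-keratin cell, 4 per strict low-keratin cell and 0 per mesenchyme cell. Krt4 and Krt13, which line stratified mucosa and mark later periderm, had no UMI in the simple keratin cells, which with a limit of 3 counts allows each up to 1.70 CPM.

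Sfn (chr4:133600556-133602168, minus strand) had 5411 UMIs in simple keratin cells and 868 in the low-keratin epithelium. Its level was 3062 CPM in simple keratin cells, against 199 CPM, a ratio of 16.8 (95% interval 15.7 to 18.1). It was detected in every simple keratin cell and in 47.2% of low-keratin cells, 87.9% of strict low-keratin cells and 4.44% of mesenchyme cells. Sfn was therefore present in most of the strict epithelium and differed in amount. Gabrp (chr11:33550781-33578959, minus strand), which encodes a GABA-A receptor subunit found in epithelia, had 408 UMIs in simple keratin cells and 11 in the low-keratin epithelium. It was detected in 59.9% of simple keratin cells, 1.48% of low-keratin cells and 0.161% of mesenchyme cells, and its ratio to the strict group was 42.5 (95% interval 21.4 to 99.1). Rhov (chr2:119269201-119271272, minus strand), an atypical small GTPase, had 645 UMIs in 71.7% of simple keratin cells and 20 in 3.46% of low-keratin cells, a ratio of 87.2 (56.0 to 144). Grhl3 (chr4:135541888-135573630, minus strand), a Grainyhead-like factor needed for the epidermal barrier in the mouse, was detected in 73.0% of simple keratin cells, against 6.42% of low-keratin cells and 1.37% of mesenchyme cells. Gabrp and Rhov were close to absent from the comparison epithelium, unlike Sfn, with a UMI in 2.01% and 4.03% of strict low-keratin cells. Grhl3 was scarce but not absent, with a UMI in 18.8% of the cells with keratin sums of 5 to 9 described above.

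Krt17, a type I keratin, was high but uneven. It had 1567 UMIs in simple keratin cells, 74 in the low-keratin epithelium and 57 in the strict group, but was found in only 76 of the 152 simple keratin cells, and a single cell held 14.4% of the 1567. Krt6a, an inducible type II keratin, was called higher on 20 UMIs against 1. The keratin genes include close copies, and the sources used here do not say how reads shared between copies were counted. Krt14, the keratin of the deep epidermal layer, had 5077 UMIs in simple keratin cells and 734 in the low-keratin epithelium, at 2873 CPM against 168 CPM, a ratio of 18.7 (17.3 to 20.2). Its partner Krt5 stood at 862 CPM in simple keratin cells, against 133 CPM in the low-keratin epithelium. Both were also called higher against the strict group, by 7.92-fold (7.25 to 8.68) for Krt14 and 3.08-fold (2.76 to 3.44) for Krt5. Krt15, another keratin of the deep layer, had 69 UMIs in simple keratin cells, 138 in the low-keratin epithelium and 69 in the strict group and was called in neither comparison.

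**Figure D2:**
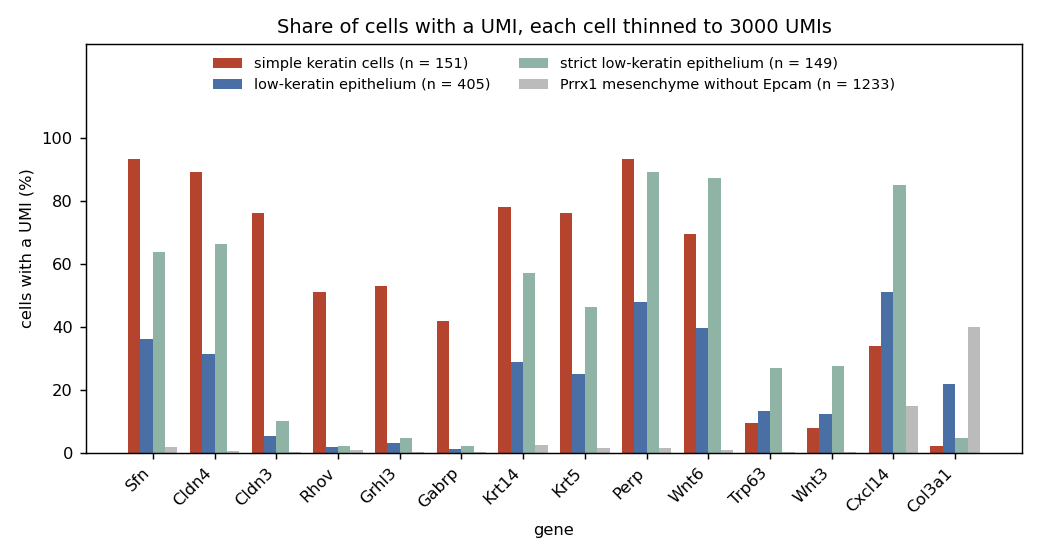
Share of cells with a UMI of each gene (%, vertical axis) after each cell was thinned to 3000 UMIs, in 151 simple keratin cells, 405 low-keratin cells, 149 strict low-keratin cells and 1233 mesenchyme cells. Sfn was in 93.4% of simple keratin cells and 63.8% of strict low-keratin cells, and Rhov in 51.0% and 2.01% of the same groups, while Wnt6, Trp63, Wnt3 and Cxcl14 were more often detected in the strict low-keratin epithelium.

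The genes with the largest ratios spanned several functions. Acta2 (chr19:34241090-34255590, minus strand), the smooth muscle actin, led them with 546 UMIs in simple keratin cells and 8 in the low-keratin epithelium, a ratio of 184 (93.0 to 429). It was present in 38.8% of the simple keratin cells and 1.69% of mesenchyme cells, and a single cell held 15.9% of the 546 UMIs. Tagln, another smooth muscle cytoskeletal gene, had 283 UMIs in simple keratin cells and 24 in the low-keratin epithelium. Arg1 (arginase) had 342 UMIs in simple keratin cells and 12 in the low-keratin epithelium, and was detected in 63.8% of the simple keratin cells. Anxa1, an annexin, was detected in 73.0% of simple keratin cells and 5.93% of low-keratin cells. The transcription factors Elf5 (102 UMIs in simple keratin cells, 3 in the low-keratin epithelium) and Zfp750 (126 and 4 UMIs in the same groups) were among the 20 as well. Others were Heyl, AU018091, Paqr5, Bspry, Tnfaip2, Aldh3b2, Pvrl4, Duoxa1, Mall and Cldn8, with ratios of 41.0 to 82.9, beside Gabrp, Rhov, Krt17 and Ppl.

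Tight junction and desmosome genes were mostly higher, as were 18 of 19 genes of general surface epithelium against the low-keratin epithelium and 11 of 19 against the strict group. Of 19 tight junction genes tested 17 were called higher against the low-keratin epithelium and 12 against the strict group, and none lower in either. Ocln (occludin) had 117 UMIs in simple keratin cells and 14 in the low-keratin epithelium, a ratio of 22.6 (12.9 to 42.6). The claudins Cldn4, Cldn6 and Cldn7 were detected in 96.7 to 98.7% of simple keratin cells and in 69.8 to 95.3% of the strict group, at 4.16-fold (3.81 to 4.56), 2.78-fold (2.52 to 3.06) and 3.32-fold (2.96 to 3.74) the strict group's level. All 11 desmosome and cornified envelope genes tested were higher against the low-keratin epithelium and 9 against the strict group. Dsp (desmoplakin, which ties keratin filaments to desmosomes) was detected in 73.7% of simple keratin cells, against 12.1% of low-keratin cells. Ppl (periplakin) had 182 UMIs in simple keratin cells and 9 in the low-keratin epithelium, and Tgm1, the transglutaminase that crosslinks the cornified envelope, 249 and 18 UMIs in the same groups. Of 10 adherens junction genes 3 were higher and 1 lower in each comparison. Cdh1 (E-cadherin) was 2.45-fold (2.02 to 2.99) higher than in the strict group. Cdh2 (N-cadherin) was 4.20-fold lower (1.86 to 10.7), on 8 UMIs in simple keratin cells and 28 in the strict group.

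**Figure D3:**
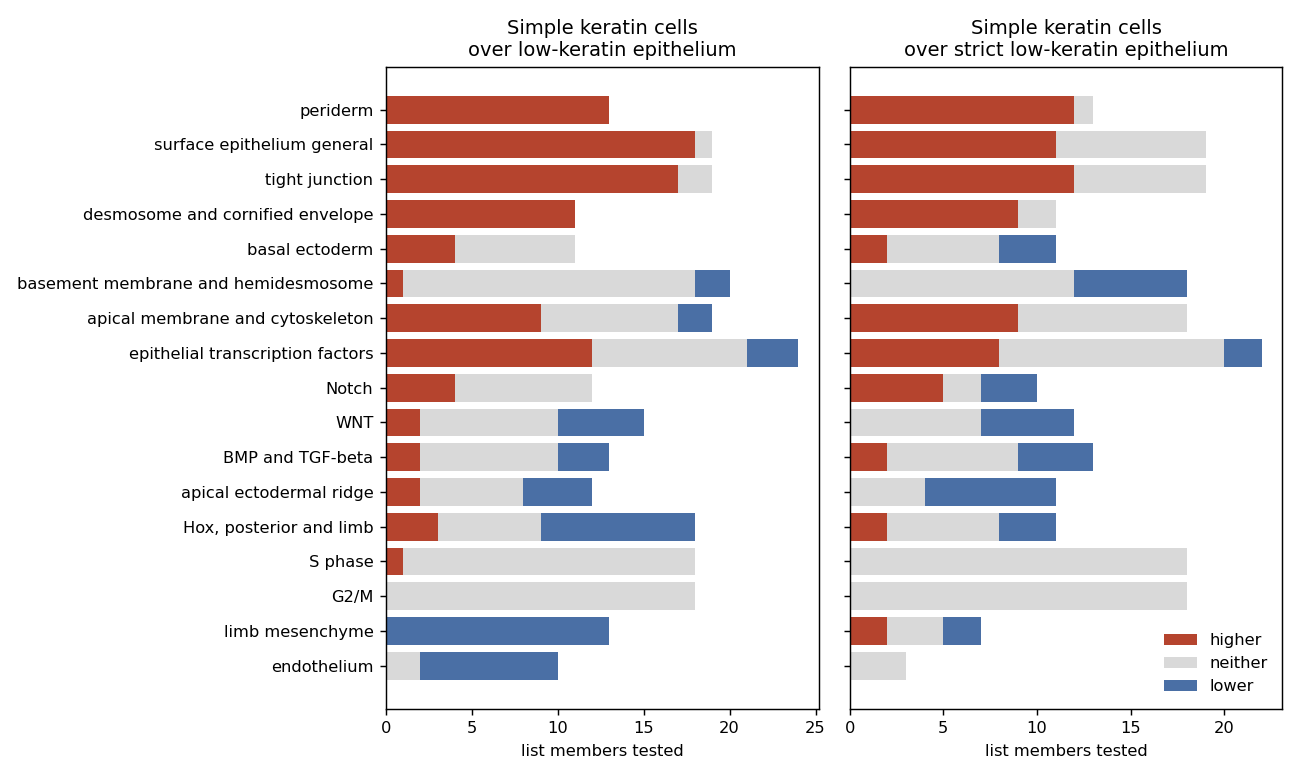
Number of tested members of each gene list (horizontal axis) called higher, neither or lower in simple keratin cells, over the low-keratin epithelium (left) and the strict low-keratin epithelium (right). Periderm, tight junction and desmosome lists were mostly higher in both panels, while limb mesenchyme genes were lower for 13 of 13 tested on the left panel and for 2 of 7 on the right.

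Of 24 epithelial transcription factors tested 12 were higher and 3 lower against the low-keratin epithelium, and 8 were higher in both comparisons. Grhl1, Grhl3, Klf5, Elf3, Ovol1, Tfap2c and Zfp750 were among these 8. Ovol1, a zinc finger repressor of the epidermal lineage, had 812 UMIs in simple keratin cells and 94 in the low-keratin epithelium, a ratio of 23.3 (18.8 to 29.2). Klf5 had 157 UMIs in simple keratin cells and 58 in the low-keratin epithelium. Trp63 went the other way against the strict group, at 36.2 CPM in simple keratin cells and 111 CPM, or 2.89-fold lower (2.14 to 3.93). Against the whole low-keratin epithelium, at 46.3 CPM, Trp63 was not called. Of 11 basal ectoderm genes Krt5 and Krt14 were higher in both comparisons, and Trp63, Itga6 and Col17a1 were lower against the strict group.

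Genes that fasten the deep layer to its basement membrane were lower than in the strict group. Of 18 tested 6 were called lower and none higher: Itga6, Itga3, Col17a1, Col4a2, Frem1 and Frem2. Itga3, an integrin subunit that binds laminin, stood at 35.1 CPM in simple keratin cells and 83.8 CPM in the strict group, 2.25-fold lower (1.64 to 3.11). Frem2 was 2.55-fold lower (1.80 to 3.65). Against the whole low-keratin epithelium none of these 6 was called, and 1 of 20 genes of the list was higher and 2 lower.

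Cytoskeletal and apical genes were higher in part. Of 19 tested against the low-keratin epithelium 9 were higher and 2 lower, Msn and Lgals1, and of 18 tested against the strict group 9 were higher and none lower. Tpm1 (tropomyosin) stood at 1735 CPM in simple keratin cells and 656 CPM in the strict group, 2.81-fold (2.61 to 3.03). Ezr (ezrin, which links actin to the apical membrane) was 2.70-fold (2.37 to 3.07) higher than in the strict group. The intermediate filament gene Vim stood at 1415 CPM in simple keratin cells, 799 CPM in the low-keratin epithelium and 351 CPM in the strict group, so that it was called higher only against the strict group (4.29-fold, 3.89 to 4.74). Vim was found in 94.3% of mesenchyme cells. Lmna (lamin A) was higher in both comparisons, 3.81-fold (3.10 to 4.68) and, against the strict group, 3.01-fold (2.27 to 4.03).

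Among signalling genes the Notch list moved in both directions. The receptor Notch1 stood at 167 CPM in simple keratin cells, 27.3 CPM in the low-keratin epithelium and 25.3 CPM in the strict group, and 69.7% of simple keratin cells held it. Notch1, Notch3, the ligand Jag1 and the target Heyl were higher in both comparisons. The ligands Jag2 and Dll1 were lower against the strict group, with 10 and 14 UMIs in simple keratin cells and 21 and 29 in the strict group. Of 15 WNT genes tested against the low-keratin epithelium 2 were higher, Wnt7a and Wnt7b, and 5 lower, and of 12 tested against the strict group none was higher and 5 were lower. Wnt3, an ectodermal ligand needed for ridge formation in the mouse, stood at 34.5 CPM in simple keratin cells and 115 CPM in the strict group, 3.13-fold lower (2.31 to 4.27). The WNT inhibitor Notum and Wnt5a were lower in both comparisons, at log2 ratios of -1.72 and -0.97 to the strict group once the 15 Fgf8 cells were left out, where Wnt5a no longer passed the 2-fold limit. Wnt6, a ligand of limb ectoderm, was called in neither, at 512 CPM in simple keratin cells, 302 CPM in the low-keratin epithelium and 714 CPM in the strict group, with 94.1% of simple keratin cells holding a UMI.

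Markers of the dorsal and ventral ectoderm were both present. Wnt7a, the dorsal ligand, was detected in 53.9% of simple keratin cells, 16.5% of low-keratin cells and 36.2% of strict low-keratin cells, and was not called against the strict group (1.27-fold, 0.998 to 1.61). En1, the ventral transcription factor that is also in the ridge list, was detected in 9.21% of simple keratin cells, 13.1% of low-keratin cells and 25.5% of strict low-keratin cells, and was 4.61-fold lower than in the strict group (2.75 to 8.09). Of the 19 En1 UMIs in simple keratin cells, 12 lay in the 36 cells of sub-cluster 1, described further on. Of 13 BMP and TGF-beta genes Tgfb2 was higher in both comparisons, and Bmp4 and Tgfb3 were lower in both. Tgfb3 was called on very few UMIs, with 2 in the 116 simple keratin cells outside sub-cluster 1. The Bmp4 call rested on the 15 strict cells with Fgf8, without which its log2 ratio to the strict group was near 0. In the FGF and EGF list Fgfr3 and Erbb3 were higher in both, and Fgf9 and the FGF feedback gene Dusp6 lower in both, beside Fgf8, which the rule set to 0. Without the 15 Fgf8 cells Fgf9 had a log2 ratio of 0.34 to the strict group, in place of -2.19, so its call rested on them too. Other genes with the largest lower ratios against the strict group were Cyp26a1, which degrades retinoic acid (4.80-fold lower, 2.91 to 8.27), Flrt3 (4.17-fold lower, 3.14 to 5.61), Ror2, Pdpn and Igfbp5. Of the 15 genes with the largest such ratios, 4 were also lower against the whole low-keratin epithelium. The other 11, among them Cyp26a1, En1, Pdpn and Igfbp5, were called in neither direction there. Cxcl14, a chemokine of skin epithelium, stood at 812 CPM in simple keratin cells and 2638 CPM in the strict group, 3.05-fold lower (2.87 to 3.25).

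Cell cycle genes did not separate the groups by the 2-fold limit. Of 18 S phase genes 1, Ung, was called higher against the low-keratin epithelium and none against the strict group, and of 18 G2/M genes none was called in either comparison. At 3000 UMIs per cell the G2/M list summed to a median of 7 UMIs in simple keratin cells, against 8 in the low-keratin epithelium and 7 in the strict group. Top2a, a mitotic topoisomerase, had a UMI in 69.1% of simple keratin cells, 66.7% of low-keratin cells and 62.4% of strict low-keratin cells. Cdkn2b, a cell cycle inhibitor, was higher in both comparisons, on 28 UMIs in simple keratin cells and 2 in each other group.

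Other epithelia that carry simple keratins were checked by their markers. Of 14 gut and cloacal endoderm genes 10 had no UMI in the 152 cells, among them Foxa2, Shh and Hnf4a. Of 14 yolk sac and liver genes 12 had none and Apoa1 had 1, while Apoe had 159 UMIs in simple keratin cells and 712 in the low-keratin epithelium and was not called. The mesothelial genes Msln, Muc16 and Tcf21 had none and Wt1 had 1, while Upk1b, a uroplakin of the same list, had 411 UMIs in simple keratin cells and 61 in the low-keratin epithelium. Of 5 mesothelial genes tested against the low-keratin epithelium 2 were higher, Upk1b and Podxl (63 and 65 UMIs), and none lower. Of 4 tested against the strict group Upk1b was higher and Igfbp5 lower. Upk3b had 8 and 2 UMIs in simple keratin cells and the low-keratin epithelium, too few to be tested. Of 14 nephric genes 7 had none, among them Pax8, Ret, Lhx1 and Cdh16, while Wfdc2 was called higher in both comparisons, on 49 UMIs in simple keratin cells, 44 in the low-keratin epithelium and 11 in the strict group. Gata3 of the same list had 51 UMIs in simple keratin cells and was called in neither comparison, and Emx2 had 35 and was lower against the strict group. From the trophoblast list Elf5 and Tfap2c were higher in both comparisons, and Eomes, Gcm1, Tpbpa, Prl3d1 and Prl3b1 had none. Leukocyte markers were at 0 for 7 of 10, and limb mesenchyme genes summed to 165 CPM in simple keratin cells, 1286 CPM in the low-keratin epithelium, 214 CPM in the strict group and 2450 CPM in mesenchyme. The 15 largest lower ratios to the low-keratin epithelium were those of S1pr3, Col3a1, Pitx1, Scarf2, Shox2, Lpar1, Tbx18, Runx1t1, Lix1, Twist1, Serpinf1, Clmp, Mecom, Col26a1 and Pdgfra, 10.1 to 36.1-fold lower, and each was detected in 39.6 to 89.5% of mesenchyme cells. Col3a1, a mesenchymal collagen, had 10 UMIs in simple keratin cells and 635 in the low-keratin epithelium. Col3a1, Scarf2 and Runx1t1 were also lower against the strict group, 7 of the others were called in neither direction there and 5 had too few UMIs to be tested. All 13 mesenchyme genes tested were called lower against the low-keratin epithelium. Against the strict group 2 of 7 were lower and 2 higher, Prrx1, which that group was chosen to lack, and Prrx2. The part of mesenchymal UMIs in the lower calls against the whole low-keratin epithelium was not tested further than by the strict group.

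Levels per cell were also ranked for likeness to the keratin sum per 10000 UMIs, over the 557 cells of both groups and 8370 genes. The 10 genes of highest Spearman correlation were Sfn (0.85), Cldn4 (0.81), Pdlim1 (0.78), Cldn6 (0.78), Slc2a3 (0.77), Krt5 (0.76), Cldn7 (0.75), Cldn3 (0.73), Anxa2 (0.72) and Emp1 (0.71). The cells share 1 library and the 2 groups differ in keratin by construction, so these values are a description. Within the 152 simple keratin cells alone Cldn3 (0.71), Tpm1 (0.70), Vim (0.70) and Sfn (0.67) followed the keratin level, and Cxcl14 (-0.60) and Trp63 (-0.52) ran against it. Slc2a3, a glucose transporter, had 4614 UMIs in simple keratin cells and 905 in the low-keratin epithelium.

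The simple keratin cells were not uniform. A Trp63 UMI was found in 31 of them, and 6 of these 31 also held Rhov, against 103 of the 121 without Trp63. For Gabrp the counts were 6 of 31 with Trp63 and 85 of 121 without it. Clustering of the 152 cells on genes other than those of the rule gave 4 sub-clusters, of 42, 36, 52 and 22 cells, in the order 0 to 3. Their genes describe them and are no test. Sub-cluster 1 (36 cells) had the lowest keratin sum, with a median of 13 UMIs, but the greatest depth, with a median of 15463.5 UMIs. It held 58 of the 64 Trp63 UMIs and 53 of the 69 Krt15 UMIs, and none of the 645 Rhov or 408 Gabrp UMIs. Cldn3 was detected in 44.4% of its cells and in 97.6 to 100% of the cells of the other sub-clusters, and Sfn stood at 4.81 UMIs per 10000, against 39.9 to 45.3 in the others. The periderm list stood at 15.0 UMIs per 10000, against 113 to 123 in the others. In the strict group, at lower depth, Cldn3 was detected in 20.8% of cells and Trp63 in 61.1%, against 69.4% for Trp63 in sub-cluster 1. By these markers sub-cluster 1 lay closer to the strict low-keratin epithelium than to the other simple keratin cells. Epcam was detected in nearly all simple keratin cells, 151 of 152.

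**Figure D4:**
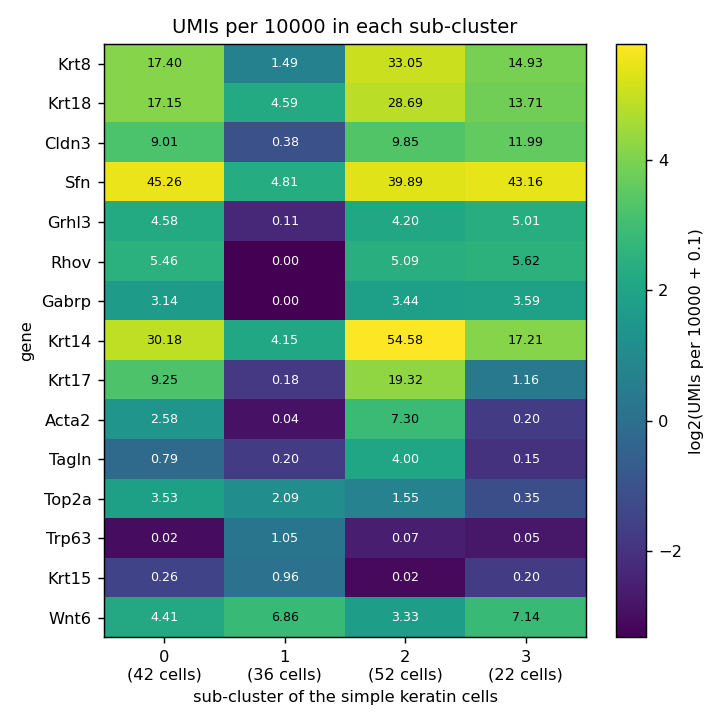
UMIs per 10000 of 15 genes (rows, numbers in the cells, colour on a log2 scale) in the 4 sub-clusters of the 152 simple keratin cells (columns, with the number of cells). Sub-cluster 1 had no Rhov or Gabrp UMI and the highest Trp63 and Krt15 values, and sub-cluster 2 the highest Krt8, Krt14, Krt17 and Acta2 values.

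Among the other 116 cells, sub-cluster 2 (52 cells) had the highest median keratin sum, 52.5 UMIs, with Krt14 at 54.6 UMIs per 10000 and 429 of the 546 Acta2 UMIs. Acta2 and Tagln tended to be in the same cells, 40 of the 59 simple keratin cells with Acta2 against 21 of the 93 without it. Sub-cluster 0 (42 cells) stood apart from sub-cluster 3 (22 cells) in mitotic genes, with Top2a in 95.2% of its cells against 9.09%. The rule counts raw UMIs, so depth enters it. A limit of 10 keratin UMIs per 10000 kept 133 of the 152 cells, and the 19 it dropped all lay in sub-cluster 1 and had a median of 18616 UMIs. It added 17 cells, with a median of 5469 UMIs.

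Without sub-cluster 1 the contrast with the strict group was wider. Trp63, Wnt3 and Cxcl14 were among the leading genes of the removed cells, which also held most Krt15 UMIs. The wider ratios of these 4 genes therefore follow from the removal and are no test. The remaining 116 cells held 6 Trp63 UMIs and were 20.8-fold lower (9.34 to 57.5) in Trp63 than the strict group, where all 152 cells were 2.89-fold lower. Wnt3 was 32.2-fold lower (12.3 to 120) on 4 UMIs, and Cxcl14 30.2-fold lower (24.7 to 37.3). Krt15 was 3.49-fold lower (2.01 to 6.44) on 16 UMIs. Krt14 and Krt5 remained higher, at 11.2-fold (10.2 to 12.3) and 4.03-fold (3.61 to 4.51). Over all 9017 genes tested 9.37% were called higher and 7.15% lower. Of 17 basement membrane genes tested 10 were lower in the 116 cells, against 6 of 18 for all 152. The 116 cells held 13 of the 62 Itga3 UMIs, 19 of the 49 Itga6 UMIs and 1 of the 16 Frem1 UMIs. The larger number of lower basement membrane genes thus also comes with the removal and is no test. The periderm list kept 12 of 13 higher. In counts per cell, Trp63 was detected in 5.17% of the 116 cells and Krt14 in 93.1%, so that most of these cells carried Krt14 with no Trp63 UMI at this depth.

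The 152 cells were also divided by keratin per 10000 UMIs into bins of 51, 51 and 50 cells, low to high. The bins use the keratins of the rule. Sub-cluster 1 had 9.19 keratin UMIs per 10000, against 42.5 to 76.0 in the others, and made up most of the low bin. Steps from the low to the middle bin thus largely restate that sub-cluster and are no second result. Sfn stood at 11.5, 41.6 and 45.7 UMIs per 10000, Rhov at 0.825, 5.02 and 6.12, and Notch1 at 0.560, 2.53 and 2.31. Krt14 stood at 9.19, 26.6 and 57.6, Vim at 6.00, 15.0 and 24.4, and Acta2 at 0.336, 3.44 and 6.50. Cxcl14 went the opposite way, at 18.9, 0.925 and 0.670, as did Wnt6 at 6.39, 4.61 and 3.90. Epcam changed little, at 9.16, 11.2 and 10.3. Sfn, Rhov, Notch1 and Cxcl14 changed between the low and the middle bin and little beyond it, whereas Krt14, Vim and Acta2 also differed between the middle and the high bin. Median depth was 13518, 9280 and 9135 UMIs in the bins.

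The same rule found few cells later. Where 5.76% of the E11.5 cells met it, only 7 cells did at E13.5, or 0.249%, with an upper 95% limit of 0.511%. The E15.5 library held 11 such cells (0.423%, 0.212 to 0.756%), and the E18.5 library 8 (0.420%, 0.182 to 0.826%). Stage and library cannot be told apart, and how many surface cells survived dissociation and freezing at each stage was not tested. The keratins of these cells differed between the libraries. Krt8, Krt18 and Krt19 belong to the rule that chose the cells, whereas Krt15, Krt4 and Krt10 do not. At E18.5 Krt8 and Krt18 were each found in 3 of the 8 cells and Krt19 in 1. In order of stage, Krt8 stood at 17.4, 3.03, 5.79 and 5.06 UMIs per 10000, and Krt18 at 16.7, 2.15, 4.99 and 6.10. Krt19 stood at 2.82, 34.8, 32.1 and 0.691, and Krt15 at 0.390, 10.2, 87.1 and 67.3. Krt4, with no UMI at E11.5, stood at 10.3 and 83.3 in the next pair of libraries and was again at 0 in the last. Krt10, a keratin of the differentiated epidermis, reached 40.4 at E18.5. Sfn was present throughout, at 30.6, 21.7, 18.5 and 18.6. Gabrp stood at 2.31, 6.34 and 1.20 in the first 3 libraries and had no UMI at E18.5. With 7 to 11 cells in each later library, these values rest on very few cells.

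**Figure D5:**
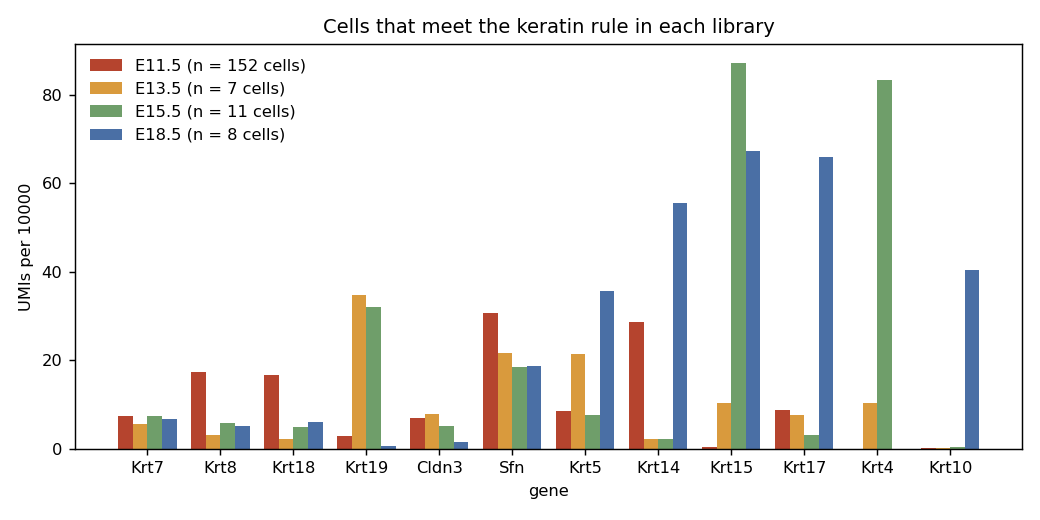
UMIs per 10000 (vertical axis) of keratins, Cldn3 and Sfn in the cells that met the rule in each library, with 152 cells in the E11.5 library and 7, 11 and 8 cells in the later ones. Krt8 and Krt18 were highest at E11.5, Krt19 in the E13.5 and E15.5 cells, Krt4 and Krt15 at E15.5, and Krt10 was seen mainly at E18.5.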

How the data were processed

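Single cells of mouse hindlimbs were measured in 4 libraries, 1 per stage. The deposited files hold raw UMI counts per gene and cell barcode, with 33456 gene entries. Per the submitters' processing notes, Cell Ranger, Seurat 2.3.4 and the genome build mm10 were used; their settings are not stated there. The cell limits (at least 200 genes, at most 10% mitochondrial UMIs), the keratin rule and all ratios were computed here with Python 3.11.15, NumPy 2.4.6, SciPy 1.17.1 and pandas 2.3.3, and sub-clusters (Leiden, resolution 0.5) with Scanpy 1.11.5. Doublets were kept; Scrublet scores served for an alternative.

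UMIs were summed per group, scaled to the group's total and divided by the median gene's ratio, which was -0.13 on the log2 scale against the low-keratin epithelium and -0.09 against the strict group. Ratios carry exact conditional binomial 95% intervals. The calculation was tested on simulated data. Gene positions are from GENCODE vM21 (GRCm38), and the promoter is from RefSeq (GRCm38.p6).

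Genes named were those of the rule, the 20 largest higher and 15 largest lower ratios (50 UMIs in both groups, a UMI in 25% of cells), the leading members of 44 lists and the 10 genes most like the keratin sum. Genes named beyond these, such as Trp63, Wnt3, Cxcl14, Notch1 and Tagln, were chosen after their values were seen. The cells, the lists and the alternatives of the rule were chosen with earlier results of these data known. The strict comparison group, the bins and the removal of a sub-cluster were added after the data were seen. Some genes of the lists are counted but not reported by name here.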

Additional observations from a re-analysis of the deposited data

How the results depend on the processing

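Against the low-keratin epithelium as first taken, 801 genes were higher and 941 lower. The number of lower genes depended on which epithelium was compared: it was 432 with at least 3 Epcam UMIs per comparison cell, 549 without cells holding Prrx1 or Pdgfra, 377 against the strict group and 356 against it without its 15 Fgf8 cells. In the strict comparison higher genes made up 61.8% of the calls in place of 46.0%. Only 27 low-keratin cells held Fgf8, and against them 458 genes were higher and 451 lower. Thinning each cell to 3000 UMIs left 536 lower, with fewer genes tested, and a limit of 3-fold gave 458 higher and 626 lower by construction. Without centring on the median gene 685 were higher and 1107 lower. A keratin limit of 5 gave 216 cells and one of 20 gave 105. A Leiden resolution of 1.0 gave 7 sub-clusters in place of 4. Among named genes called against the low-keratin epithelium, the log2 ratio of Epcam changed sign to -0.71 against the Fgf8 cells and to -0.016 against the strict group, and that of Tfap2c to -0.45 against the Fgf8 cells. Prrx2, a mesenchyme gene, changed to 0.14 against the Fgf8 cells, 0.23 with at least 3 Epcam UMIs, 1.44 against the strict group, 1.40 against it without Fgf8 cells and 1.83 against it without the sub-cluster of lowest keratin. Fgf9 changed to 0.34 against the strict group without Fgf8 cells. Against the Fgf8 cells Tbx18 changed to 0.35 and Twist1 to 0.49, and with at least 3 Epcam UMIs Mecom to 0.16 and Wnt7b to -0.17. Against the strict group Lix1 changed to 0.32, Mecom to 0.085, Pitx1 to 0.32, Tbx18 to 0.47, Twist1 to 0.026 and Wnt7b to -0.31. Against it without Fgf8 cells Lix1 changed to 0.77, Pitx1 to 0.19, Tbx18 to 0.60, Twist1 to 0.062 and Wnt7b to -0.38. Against it without the sub-cluster of lowest keratin Col26a1, Tbx18 and Twist1 changed to 0.30 each, Lix1 to 0.041, Mecom to 0.54, Pitx1 to 0.79 and Wnt7b to -0.76. Of named genes not called against the low-keratin epithelium and positive there, Wnt6 was at -0.39, Krt15 at -0.26, Gata3 at -0.54, Emx2 at -1.16, Itga3 at -1.17 and Dll1 at -1.31 against the strict group. The strict group was chosen for at least 3 Epcam UMIs, so the change of Epcam against it follows from that choice. The cause of the other changes was not tested. Of the periderm genes 13 were higher against the low-keratin epithelium as first taken, and 9 (against the Fgf8 cells) to 13 under the alternatives, with 11 after thinning and 11 without cells holding Prrx1 or Pdgfra. No paired analysis was possible because each stage is 1 library and no test was made. Depth limits the genes with few UMIs, such as Krt6a, Elf5 and Jag2, whose intervals are wide.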

Other observations

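Genes of several other lists differed between the simple keratin cells and the rest of the epithelium. Among genes of secretion, surface defence and transport, 10 of 16 were higher against the low-keratin epithelium and none lower, and 6 of 16 were higher against the strict group and 2 lower. Lypd3, a surface protein of stratified epithelia, had 391 UMIs in simple keratin cells and 34 in the low-keratin epithelium, and Slc2a3 stood at 2611 CPM in simple keratin cells against 208 CPM. The imprinted transcripts H19 and Slc38a4 were higher in both comparisons. H19 stood at 2205 CPM in simple keratin cells, 1117 CPM in the low-keratin epithelium and 879 CPM in the strict group. Slc38a4, an amino acid transporter, was 6.44-fold (5.72 to 7.25) higher than in the low-keratin epithelium and 3.61-fold (3.12 to 4.20) higher than in the strict group.

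Of 18 Hox genes of the posterior and limb list 3 were higher and 9 lower against the low-keratin epithelium, and of 11 tested against the strict group 2 were higher, 3 lower and 6 neither. Hoxb7 and Hoxb8 were higher in both comparisons, Hoxb7 with 59 UMIs in simple keratin cells, 32 in the low-keratin epithelium and 10 in the strict group, and Hoxb8 with 48, 25 and 17 UMIs in the same groups. Hoxc10, which marks hindlimb and posterior tissue, was lower in both, at 54.9 CPM in simple keratin cells, 159 CPM in the low-keratin epithelium and 157 CPM in the strict group, and was detected in 29.6% of simple keratin cells and 66.0% of mesenchyme cells. Where on the limb or the adjoining body wall each cell lay is not recorded.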
